A study of Solanum lycopersicum with 12 samples.

Results

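The effect of AtHMA4 expression that the 2 root sectors of tomato have in common was estimated from all 12 arrays of the series, 6 from transgenic plants and 6 from the wild type. The transgenic plants were line 4 (L4 below), which carries the 35S:AtHMA4 construct, and the wild type (WT below) was of the variety Beta. Each genotype gave 3 arrays of the epidermis + cortex (EC) and 3 of the stele (S), both cut from roots by laser microdissection. Arrays of a genotype that share a replicate number were taken as 1 root pool, since the study describes 3 independent experiments with the roots of several plants pooled in each, and the EC and S values of a pool were averaged, so that 3 L4 pools were compared with 3 WT pools. Both genotypes were grown in hydroponics at 5 µM Zn, which the labels date at 15 days of exposure with plants aged 25 days, whereas the paper's methods give a shorter exposure and younger plants. L4 is 1 transgenic line, and its construct is driven by the constitutive 35S promoter of cauliflower mosaic virus, so the transgene is not confined to a root cell type; with 1 line, the transgene and the line cannot be told apart. The transgene transcript itself was not checked here. With laser-cut tissue, fewer cells of a type and less RNA per cell cannot be told apart.

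HMA4 of Arabidopsis thaliana is a Zn-exporting P-type ATPase of the plasma membrane that loads Zn into the xylem, from where it reaches the shoot. Tomato roots take up iron, and with it some Zn, through a system that is switched on by the bHLH transcription factor FER. Ethylene is made from S-adenosylmethionine by ACC synthases and ACC oxidases. Its receptors act together with CTR kinases to block the pathway until ethylene binds, after which EIN2 and the EIN3-like (EIL) transcription factors turn on the ethylene response factors (ERF). The comparison asks which transcripts differ between the genotypes in the root as a whole, over both sectors.

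RNA was amplified before labelling and hybridised to the GeneChip Tomato Genome Array, and the values the authors deposited are on a log2 scale, on which a difference of 1 is a 2-fold change. The tests covered 10101 of 10209 probe sets, all but 108 controls of the array. Symbols were known for 909 of the tested probe sets, which stand for 803 genes, and 9192 had none. The median array value lay between 3.77 and 3.96 on the L4 arrays and between 3.72 and 4.02 on the WT arrays. One array, L4 EC replicate 2, was unlike the rest. Its SD was 3.04, where the remaining arrays had 3.32 to 3.48, and its mean correlation with them was 0.880, where theirs ran from 0.926 to 0.950. Its 27 spike-in controls averaged 13.9, against 9.65 to 12.4 elsewhere. Control transcripts were read more strongly at the 3' than at the 5' end on every array, by 7.52 to 10.97 log2 units for GAPDH in L4 and 7.74 to 9.33 in WT, and the part of this bias in the results below was not tested. Of 7 EC marker genes, 5 had a higher mean in the EC than in the S of L4, and 6 in WT. Some of these differences were very small: 0.017 for FRO1, 0.056 for ext1 and 0.077 for EXPA8 in WT, and 0.088 for PT2 in L4. The marker exp18 was lower in the EC in both genotypes, by -0.91 in L4 and -0.32 in WT. These counts are therefore weak evidence for the EC label. The 3 stele markers did not bear out the sector label in WT, where all 3 had the higher mean in the EC, as 1 of them had in L4; sus3, described below, is 1 of these 3.

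No gene passed the test. Limma on the 6 pool means called 0 of 10101 probe sets (0%) at an adjusted p under 0.05 with at least a 1.2-fold difference, and the smallest adjusted p was 0.0562. At an unadjusted p under 0.05 and at least 1.2-fold, 6.92% of the probe sets were counted: 244 probe sets were higher in L4 (2.42%) and 455 were lower (4.5%). Whatever their p, 283 were at least 2-fold higher (2.8%) and 646 at least 2-fold lower (6.4%). The median standard error of a difference was 0.28, and the median 95% interval reached 0.71 log2 units to each side; with 3 pools a genotype, the number of arrays limits the precision. The excess of lower over higher values at the unadjusted threshold moved with 1 pool and with the scaling: without L4 replicate 2 the counts were 337 higher (3.34%) and 361 lower (3.57%), and after quantile normalization 326 higher (3.23%) and 360 lower (3.56%).

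**Figure D1:**
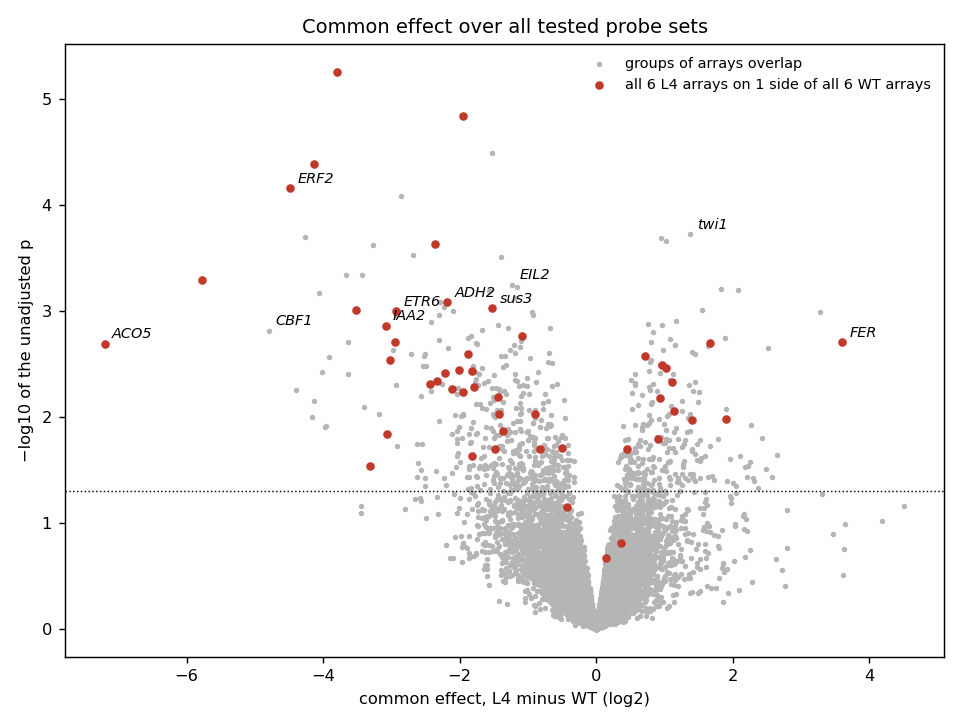
Common effect of each of the 10101 tested probe sets (horizontal axis, L4 minus WT on the log2 scale) against −log10 of the limma p before adjustment (vertical axis), with the unadjusted threshold as a dotted line. Red points are the 49 probe sets whose 6 L4 arrays all lie on 1 side of the 6 WT arrays, 35 of them lower in L4, with ACO5 farthest to the left and FER the named gene farthest to the right.

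Another criterion uses the single arrays, and counts the EC and S of a pool separately. All 6 L4 arrays lay below all 6 WT arrays for 35 probe sets (0.347%) and above them for 14 (0.139%), together 49 (0.485%), of which 3 missed the unadjusted threshold on the pool means. Of the 803 named genes, each taken by its probe set of highest mean, 7 lay wholly below (0.872%) and 1 wholly above (0.125%). The other probe set of APS-AA2, at a mean of 2.88, also lay wholly above but is not in this count. The 7 were ERF2, ADH2, sus3, ETR6, IAA2, ACO5 and LOC778326, and the 1 was FER. These 8 genes were picked out after their values were seen. When limma was fitted to the 12 arrays with genotype and sector as terms and the root pool as a random block, 7 probe sets (0.0693%) were called: ERF2 (adjusted p = 0.00645), ETR6 (0.0394), ADH2 (0.0482) and sus3 (0.0482) among the named ones, all lower in L4. The other 3 have no symbol, and their differences were -4.14, -5.77 and 1.66. In that fit the estimated correlation between the sectors of a pool was 0.00093, so that the 12 arrays counted almost as independent samples; within single pools the deviations of the EC and S arrays from their group means correlated between -0.27 and 0.03 in L4 and between 0.06 and 0.63 in WT.

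The ethylene response factors held the named gene with the smallest p. ERF2, a DNA-binding activator at the end of the ethylene pathway, had log2 values of 2.48 to 4.20 (median 3.57) on the 6 L4 arrays and of 6.33 to 8.93 (median 8.10) on the 6 WT arrays. The groups did not overlap, and even the lowest WT array, EC replicate 1, was above the highest L4 array by more than the whole range of the L4 arrays. The common effect was -4.48 (SE 0.40, 95% interval -5.50 to -3.46), a 22.3-fold lower level in L4, with an adjusted p of 0.140 by limma on the pool means. Within the sectors it was -4.62 (EC) and -4.34 (S). CBF1, an AP2-domain factor of the same superfamily that is known for cold responses, had 2.09 to 2.54 on 5 of the L4 arrays and 7.63 on the array of L4 EC replicate 1, against 6.35 to 9.27 on the WT arrays. That 1 L4 array lay within the WT range, and the other 5 were at or under the lower quartile of all values on their array, so their level is near the floor of the measurement. The common effect on CBF1 was -4.80 (SE 0.81, adjusted p = 0.319), and -5.71 without L4 replicate 1, the pool of that array, a value that limma called. CBF1 was called in 3 of 28 alternative settings.

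Over the 15 members of the list of response factors, 12 differences were negative. The share of negative differences was 40.7% over all tested probe sets, 53.4% over the named genes and 59.6% with a mean of at least 4. In 9 members the difference was negative in both sectors, and 7 were past the unadjusted threshold, all lower in L4. As lower, 4.5% of all probe sets and 10.1% of the named genes were past it. The median was -0.52, against 0.042 over all tested probe sets and -0.14 over those with a mean of at least 4. Beside ERF2 and CBF1 the 7 held PTI6 at -2.02 (SE 0.63), erf1a at -1.62 (SE 0.40), JERF3 at -1.17 (SE 0.44), ERF3 at -1.15 (SE 0.45) and JERF1 at -0.78 (SE 0.19); PTI6 takes its name from its binding of the resistance kinase Pto. DREB1, DREB2 and DREB3 had means of 2.88 or less over the 12 arrays and differences of -0.039 to 0.065. ERF-H1 had the highest difference, 1.06 (SE 0.92). Without L4 replicate 2 the list had 4 members past the threshold, all lower, and a median of -0.70.

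**Figure D2:**
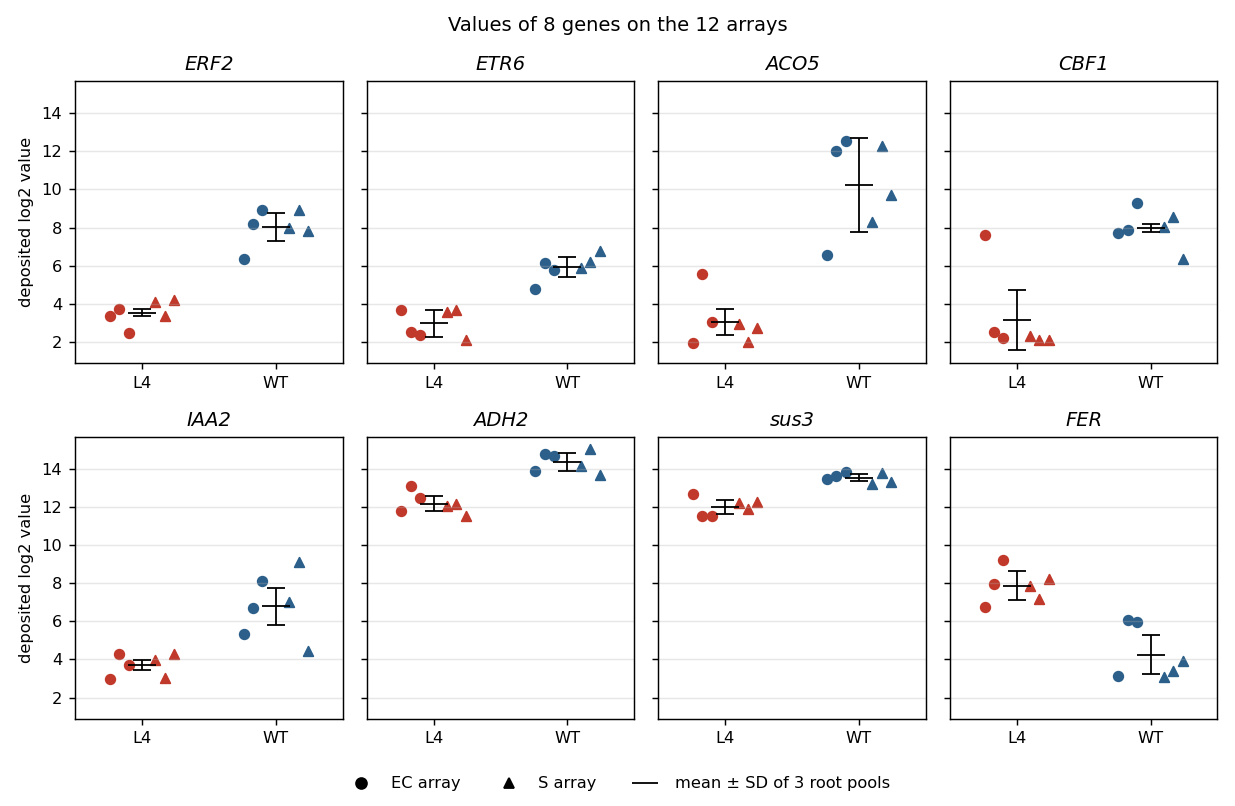
Deposited log2 values (vertical axis) of 8 genes on the 12 arrays, L4 at the left and WT at the right of each panel; circles are EC arrays, triangles S arrays, each in the order of replicates 1 to 3, and the bars give the mean ± SD of the 3 root pool means. CBF1 is the only panel in which the groups overlap, through the array of L4 EC replicate 1 at 7.63.

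Among the receptors and signalling components, ETR6, an ethylene receptor, had the smallest p after EIL2. ETR6 had 2.12 to 3.69 (median 3.06) on the L4 arrays and 4.78 to 6.79 (median 6.005) on the WT arrays. The groups did not overlap, although 3 of the L4 values were at or under the lower quartile of their array. The common effect was -2.93 (SE 0.45, 95% interval -4.07 to -1.79, adjusted p = 0.302), with -2.72 in the EC and -3.15 in the S. EIL2, a transcription factor of the EIN3 family, had 9.84 to 10.7 (median 10.2) on the L4 arrays and 10.6 to 12.2 (median 11.5) on the WT arrays. Only the array of WT S replicate 3 reached into the L4 range, and the common effect was -1.23 (SE 0.17, adjusted p = 0.299).

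Of the 16 members, 13 had a negative difference (53.4% over the named genes), 10 of them in both sectors. Lower in both sectors were 23.2% of all probe sets, 37.8% of those with a mean of at least 4 and 281 of the 803 named genes. The median was -0.87, and 7 members were past the unadjusted threshold, all lower in L4. As lower, 4.5% of all probe sets and 10.1% of the named genes were past it. The 7 were ETR6, EIL2, ETR2 (-1.56), ETR4 (-2.35), EIL4 (-1.81), EIL3 (-1.24) and the CTR kinase CTR4 (-0.91). For ETR4 and ETR2 the array of L4 EC replicate 2 was far below the others. ETR4 had 3.57 on it and 8.06 to 9.21 on the other L4 arrays, against 9.10 to 10.7 in WT, and ETR2 had 3.54 on it and 5.84 to 7.74 on the others, against 6.97 to 8.69 in WT. EIL4 had 3.80 on that array and 6.06 to 8.10 on the other L4 arrays, against 5.61 to 9.47 in WT. CTR4 had 2.76 on it and 3.56 to 5.07 on the others, against 4.74 to 5.77 in WT. EIL3 too was lowest in L4 on that array, at 5.07. ETR3, the receptor known from the Never-ripe mutant, had 4.49 on that array and 8.57 to 9.54 on the other 5 L4 arrays, against 9.26 to 9.87 in WT; its common effect was -1.32 (SE 0.74, adjusted p = 0.878), and -0.47 without L4 replicate 2. Without that pool 5 of the 16 members were past the threshold, all lower, and the median was -0.63. The kinases CTR1 and TCTR1v and EIN2, a membrane protein downstream of CTR, had positive differences of 0.058, 0.031 and 0.47, as 5986 of 10101 probe sets had a positive one; TCTR1v was near the floor with a mean of 2.02, and CTR1 was positive in the EC (0.25) and negative in the S (-0.13).

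In ethylene synthesis the largest difference of all 10101 probe sets was that of ACO5, 1 of the ACC oxidases that make ethylene from ACC. ACO5 had 1.95 to 3.06 on 5 of the L4 arrays and 5.56 on L4 EC replicate 2, against 6.58 to 12.6 (median 10.9) on the WT arrays. No L4 array reached a WT array. Of the L4 values 2 were at or under the lower quartile of their array, near the floor, so the size of the difference depends on the floor. The WT arrays themselves spread widely, with WT replicate 1 lowest in each sector, at 6.58 for the EC and 8.31 for the S. The common effect was -7.20 (SE 1.28, 95% interval -10.4 to -3.96, adjusted p = 0.319), with -6.87 in the EC and -7.53 in the S. Without WT replicate 1, the WT pool nearest to L4, the ACO5 common effect was -8.60 and was called. Without WT replicate 2 it was -6.25 and was not. ACO5 was called in 2 of 28 alternative settings. ACO4, another ACC oxidase, had 8.59 to 11.4 on the L4 arrays and 9.76 to 12.2 on the WT arrays, which overlap, and a common effect of -0.67 (SE 0.61, adjusted p = 0.916). ACO6 differed the other way, by 1.30 (SE 0.47, adjusted p = 0.661), with L4 pools at 9.22 ± 0.25 and WT pools at 7.92 ± 0.89 (SD, n = 3 each). The arrays of ACO6 overlapped, although all 3 L4 pool means lay above the WT pool means, as for 4.05% of all probe sets (5.46% lay below).

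ACC synthases, whose product is ACC, gave smaller values. Of ACS1A and ACS2 to ACS8, ACS6 had -1.26 (SE 0.35) and ACS1A -1.30 (SE 0.55), and the other 6 lay between -0.70 and 0.42 at mean levels of 1.99 to 3.36, near the floor. The S-adenosylmethionine synthase SAM1 had -0.57 (SE 0.22) and SAM3 0.19 (SE 0.60). E8, an oxidase related to ACO that is known from ripening fruit, was at 2.54 to 2.75 on the L4 arrays and 2.52 to 2.82 on the WT arrays. Over the 14 members of the list, 9 differences were negative (40.7% over all probe sets, 53.4% over the named genes), and the median was -0.35. Past the unadjusted threshold, 3 were lower (4.5% over all, 10.1% over the named genes) and 1 higher (2.42% and 2.12%). Without L4 replicate 2, 3 were past it as lower and 0 as higher, so ACO6 was no longer among them.

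**Figure D3:**
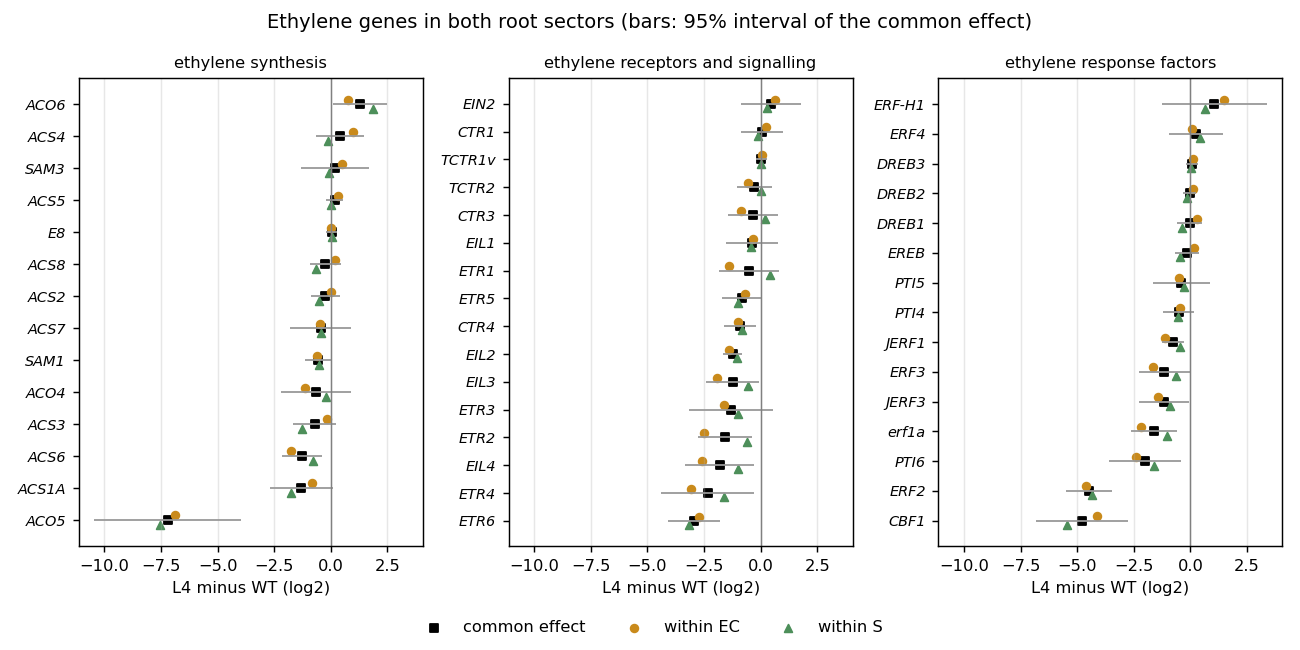
Differences between L4 and WT (horizontal axis, log2 scale) of the 45 genes of the ethylene lists, 1 gene a row, in order of the common effect; squares are the common effect with its 95% interval, circles the difference within the EC and triangles that within the S. ACO5, ERF2, CBF1 and ETR6 lie farthest to the left, with both sectors below 0.

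Genes of sugar cleavage and of fermentation were among those with separate arrays. ADH2, an alcohol dehydrogenase known to accumulate when roots lack oxygen, had 11.5 to 13.1 (median 12.1) on the L4 arrays and 13.7 to 15.0 (median 14.4) on the WT arrays. The groups did not overlap, at levels near the top of the scale. The common effect was -2.18 (SE 0.32, 95% interval -2.998 to -1.37, adjusted p = 0.302), a 4.54-fold lower level in L4, with -1.99 in the EC and -2.37 in the S. The haemoglobin GLB2, the other gene of the hypoxia list, had 0.55 (SE 0.36), with -0.59 in the EC and 1.70 in the S. The sucrose synthase sus3, which splits sucrose for use in the cell, had 11.5 to 12.7 (median 12.04) on the L4 arrays and 13.2 to 13.8 (median 13.5) on the WT arrays, again without overlap. Its common effect was -1.52 (SE 0.23, adjusted p = 0.302), with -1.73 in the EC and -1.32 in the S.

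The genes of the sugar list did not all share this direction. Of 20 members, 11 had a positive and 9 a negative difference, and the median was 0.10. The fructokinase FRK1, which phosphorylates fructose, had L4 pools at 7.02 ± 0.19 and WT pools at 7.77 ± 0.21 (SD, n = 3 each), a difference of -0.75 (SE 0.17, adjusted p = 0.376). Sucrose phosphate synthase SPS, which makes sucrose, had 0.83 (SE 0.33, adjusted p = 0.717). The sucrose transporters SUT2 and SUT4 had 0.11 (SE 0.44) and -0.031 (SE 0.20), and the cell wall invertase LIN8 had 1.80 with an SE of 1.14.

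IAA2, a repressor of the Aux/IAA family in auxin signalling, had 2.98 to 4.29 (median 3.82) on the L4 arrays and 4.46 to 9.11 (median 6.84) on the WT arrays. The groups did not overlap, and WT S replicate 3 was the WT array nearest to L4. Its common effect was -3.08 (SE 0.51, adjusted p = 0.319), -3.07 within the EC and -3.10 within the S, and the other probe set of the gene gave -2.26 (SE 0.49, adjusted p = 0.367). The other 5 Aux/IAA genes lay between -0.82 (IAA17) and 0.38 (IAA16). Of the 53 transcription factors outside the ERF group, 30 had a negative difference (53.4% over the named genes), and the median was -0.17. Past the unadjusted threshold, 9 were lower (4.5% over all probe sets, 10.1% over the named genes) and 1 higher (2.42% and 2.12%). The lower ones included WRKYIId-1 (-2.55, SE 0.75), NIF1 (-1.84, SE 0.32, adjusted p = 0.319), MYC2, a regulator of jasmonate responses (-1.36, SE 0.32, adjusted p = 0.412), and the homeobox gene VAHOX1 (-1.17, SE 0.25, adjusted p = 0.367). NIF1 had 6.76 to 9.32 on the L4 arrays and 8.84 to 10.4 on the WT arrays, and these overlap. The one higher member was TKN3, a KNOTTED-like homeobox gene. It stood at 2.24 to 4.21 in L4 and 2.26 to 2.43 in WT, with all 6 WT arrays and 3 of the L4 arrays at or under the lower quartile of their array.

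Of 14 pathogenesis-related proteins, 4 were past the unadjusted threshold, each lower in L4, while the median of the list was -0.11 and 7 of its members had a positive difference. As lower, 4.5% of all probe sets and 10.1% of the named genes were past it. GluB, a basic beta-1,3-glucanase, had 8.64 to 12.2 (median 11.4) on the L4 arrays and 11.98 to 14.4 (median 13.1) on the WT arrays. The overlap came from L4 S replicate 1 and WT S replicate 3, and the common effect was -2.42 (SE 0.39, 95% interval -3.41 to -1.43, adjusted p = 0.319). NP24-I and PR5, both thaumatin-like proteins of the osmotin family, had -1.11 (SE 0.20, adjusted p = 0.319) and -1.46 (SE 0.36, adjusted p = 0.443), and the chitinase CHI9 had -1.24 (SE 0.36, adjusted p = 0.540). The chitinase CHI3 had the highest value, 1.72 (SE 0.96).

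The tyramine hydroxycinnamoyl transferases make phenolic amides that are built into cell walls. THT7-8 had 4.23 to 9.52 (median 6.55) on the L4 arrays and 7.49 to 10.8 (median 9.31) on the WT arrays, with 2 L4 arrays within the WT range. Its common effect was -2.54 (SE 0.50, adjusted p = 0.341), made up of -4.30 for the EC and -0.79 for the S. The difference between the sectors had an unadjusted p of 0.0941 (adjusted p = 0.983, limma on the EC minus S differences of the pools). THT7-1 had -1.65 (SE 0.62, adjusted p = 0.686) and THT1-3 -1.67 (SE 0.92, adjusted p = 0.878). The enzyme hqt, which makes chlorogenic acid, had 1.34 (SE 0.61).

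**Figure D4:**
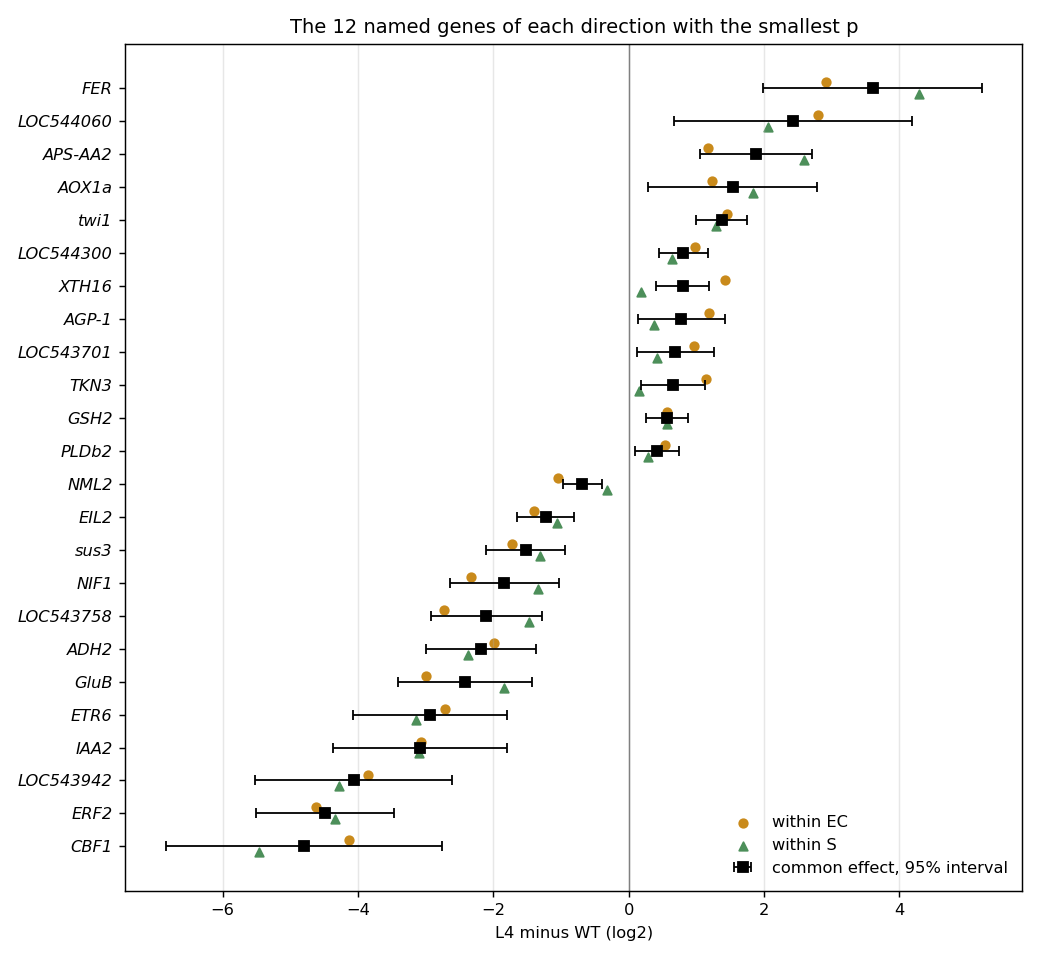
Named genes ranked by p, 12 higher and 12 lower in L4; squares with bars give the common effect of L4 minus WT with its 95% interval (horizontal axis, log2 scale), circles the difference within the EC and triangles that within the S. The 2 sectors lie on the same side of 0 for each of the 24 genes, FER at the top with 3.60 and CBF1 at the bottom with -4.80, and none passed the adjusted threshold.

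FER, the regulator of iron uptake, was the named gene with the highest difference. It had 6.75 to 9.23 (median 7.90) on the L4 arrays and 3.07 to 6.08 (median 3.65) on the WT arrays. The groups did not overlap, and in WT only EC replicates 2 and 3 were above 4. The common effect was 3.60 (SE 0.64, 95% interval 1.99 to 5.22, adjusted p = 0.319), a 12.1-fold higher value in L4, with 2.92 in the EC and 4.28 in the S. The paper notes that this probe set, like those used for Nramp2 and bZIP44, also matches sequence at other places in the genome, so its signal may not be that of 1 gene. By RT-qPCR the paper found the opposite direction, with less FER mRNA in transgenic than in wild-type roots in both sectors. Where the methods differed, the paper accepted the RT-qPCR result. The higher value given here is therefore that of the probe set, and the direction of the FER transcript itself was not tested.

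The other metal genes gave no such difference. The ferric reductase FRO1, a target of FER in iron uptake, stayed near the floor with a mean of 2.09 and a difference of 0.082 (SE 0.14). NRAMP1, Nramp2 and NRAMP3, which carry divalent metals across membranes, had -0.18 (SE 0.31), 0.15 (SE 0.15) and -0.86 (SE 0.82), and the arrays of both genotypes overlapped for all 3. For Nramp2 the 95% interval ran from -0.23 to 0.54, and for NRAMP3 from -2.94 to 1.21. NRAMP1 was near the floor, with a mean of 2.72 and 5 L4 and 3 WT arrays at or under their lower quartile. NRAMP3 had 3.29 on L4 EC replicate 2 and 5.64 to 8.57 on the other L4 arrays. Its common effect was -0.087 without that array in the random block fit. Of the metallothioneins, small metal-binding proteins, LEMT1 had -1.08 (SE 0.36, adjusted p = 0.638) with L4 pools at 12.8 ± 0.69 and WT pools at 13.9 ± 0.10 (SD, n = 3 each), while MTA had 0.13 (SE 0.61), MT4 0.14 (SE 0.24), MT3 0.32 (SE 1.51) and MT2 -1.63 (SE 1.26). The copper chaperone CCH had -0.99 (SE 0.44). Over the 12 members, 6 differences were positive and 6 negative, with 1 member past the unadjusted threshold in each direction and a median of -0.051. Past it were 2.42% of all probe sets and 2.12% of the named genes as higher, and 4.5% and 10.1% as lower. The bZIP44 probe set had 5.20 on L4 EC replicate 2 and 10.1 to 11.9 on the other L4 arrays, against 10.7 to 12.1 in WT, and its common effect of -1.33 (SE 0.81, adjusted p = 0.898) was -0.25 without that 1 array.

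All 4 genes of phosphate, potassium and ammonium uptake had a lower mean in L4 in both sectors, but for PT2 the S values of both genotypes were near the floor. Lower in both sectors were 23.2% of all probe sets, 37.8% of those with a mean of at least 4 and 281 of the 803 named genes. The potassium channel LKT1 had 3.64 to 4.38 on the L4 arrays and 4.18 to 8.28 on the WT arrays, a common effect of -1.9998 (SE 0.66, adjusted p = 0.6252). The phosphate transporters PT1 and PT2, which are also markers of the EC, had -1.13 (SE 0.38) and -0.78 (SE 0.29). PT1 had -1.75 in the EC and -0.50 in the S. PT2 was near the floor on all L4 arrays (2.11 to 2.42) and on the WT S arrays (2.14 to 2.30), where the lower quartiles of the arrays were 2.37 to 2.81, so its sectors cannot be compared. The 7 EC markers together averaged 3.81 to 5.06 on the L4 arrays and 4.01 to 5.11 on the WT arrays, and their part in this was not tested. The ammonium transporter AMT1-2 had -0.64 (SE 0.35). Of the 4, 3 were past the unadjusted threshold as lower, PT2 among them, where 4.5% of all probe sets and 10.1% of the named genes were. When L4 replicate 2 was left out 2 were past it, and 1 was with the spike-in covariate.

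Cell wall genes went in both directions. In the list of expansins, extensins and xyloglucan enzymes, 19 of 25 differences were positive, as were 5986 of all 10101 and 374 of the 803 named genes. In both sectors 11 of the 25 were positive (31.9% over all, 213 of the 803 named genes), and the median was 0.13. Without L4 replicate 2, 10 of the 25 were negative in place of 6. Only XTH16 was past the unadjusted threshold as higher (2.42% over all, 2.12% over the named genes). XTH3, XTH5 and XET2 were past it as lower (4.5% and 10.1%). XTH16, 1 of the enzymes that cut and rejoin xyloglucan, had 13.3 to 13.8 (median 13.5) on the L4 arrays and 10.9 to 14.1 (median 12.8) on the WT arrays. The difference of 0.80 (SE 0.15, adjusted p = 0.332) rested on pool means with SDs of 0.16 and 0.17, although WT EC replicate 3 and WT S replicate 3, which make up 1 of those pools, stood at 10.9 and 14.1, and the other probe sets of the gene gave 0.51 (SE 0.28) and 0.14 (SE 0.57). XTH3 had -1.65 (SE 0.52, adjusted p = 0.598), with 10.0 on L4 EC replicate 1 and 5.79 to 7.56 on the other L4 arrays, against 7.49 to 9.72 in WT. XTH5 had -1.86 (SE 0.67). The expansin genes, which loosen walls, had wide intervals: EXPA8 had 0.10 (95% interval -2.17 to 2.38), with 1.70 in the EC and -1.49 in the S, exp18 had -0.22 (SE 0.36), and EXP2 had 1.91 (SE 1.55). By RT-qPCR the paper found EXPA8 and exp18 lower in transgenic roots in both sectors. Of 27 cell wall hydrolases, 16 had a positive difference, with a median of 0.090, and only the beta-galactosidase TBG4 was past the unadjusted threshold (-1.42, SE 0.43, adjusted p = 0.561).

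Higher values in L4 were rarer among the named genes: 17 of 803 were past the unadjusted threshold as higher (2.12%) and 81 as lower (10.1%). Of the probe sets with a mean of at least 4, 3.93% were higher and 7.95% lower. The smallest p on the higher side was that of twi1, a wound-inducible glucosyltransferase, with 8.82 to 11.9 (median 10.3) on the L4 arrays and 8.13 to 10.1 (median 9.04) on the WT arrays. Its common effect was 1.37 (SE 0.15, adjusted p = 0.199). The arrays overlapped, and the pool means had SDs of 0.21 in L4 and 0.10 in WT, although the EC and S arrays of L4 replicate 2 stood at 11.9 and 8.82. AOX1a, the mitochondrial alternative oxidase, had 4.16 to 7.59 (median 6.38) on the L4 arrays and 2.57 to 5.98 (median 4.32) on the WT arrays, which overlap, and a common effect of 1.54 (SE 0.49, adjusted p = 0.609). GSH2, which makes glutathione, the precursor of metal-binding phytochelatins, had 0.57 (SE 0.12, adjusted p = 0.367), with 0.57 in the EC and 0.56 in the S. Its arrays overlapped, with 9.79 to 11.4 in L4 and 9.82 to 10.3 in WT. The L4 pool means had an SD of 0.083, although the EC and S arrays of L4 replicate 3 stood at 11.4 and 9.79. The iron superoxide dismutase FESOD, another antioxidant enzyme, had -0.54 in common, from -1.85 in the EC and 0.77 in the S.

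The remaining genes of the higher side were AGP-1, an arabinogalactan protein (0.78, SE 0.25), the phospholipase D PLDb2 (0.41, SE 0.13), APS-AA2 (1.88, SE 0.33, and 0.97 in its other probe set) and 3 genes without a descriptive name, LOC544060 (2.43, SE 0.70), LOC544300 (0.81, SE 0.14) and LOC543701 (0.69, SE 0.22). APS-AA2 had 4.57 to 8.46 on the L4 arrays, lowest on EC replicate 2, and 4.30 to 6.14 on the WT arrays. LOC544300 had a low mean of 3.24, and its arrays overlapped, with 2.47 to 4.95 in L4 and 2.44 to 3.25 in WT. On the lower side stood also NML2 (-0.68, SE 0.11), LOC543942 (-4.07, SE 0.58) and LOC543758 (-2.10, SE 0.32). The NML2 arrays overlapped, with 3.17 to 4.15 in L4 and 3.70 to 4.91 in WT. Its WT pool means had an SD of 0.037, although the EC and S arrays of WT replicate 1 stood at 3.70 and 4.83. For LOC543942 the L4 arrays spread between 2.30 and 7.74 and the WT arrays between 6.98 and 10.95, and the 2 probe sets of the gene gave -4.07 and -1.84. LOC778326 had -2.44 (SE 0.53, adjusted p = 0.367). None had an adjusted p below that of EIL2, and the highest was 0.614 for AGP-1.

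The smallest p-values of all belonged to probe sets without a symbol. The lowest p was that of a probe set that had 2.51 to 6.44 (median 4.56) on the L4 arrays and 7.36 to 9.40 (median 8.19) on the WT arrays. Its common effect was -3.80 (SE 0.21, 95% interval -4.33 to -3.27, adjusted p = 0.0562). The next had 5.27 to 7.52 on the L4 arrays and 7.63 to 8.91 on the WT arrays, a common effect of -1.95 (SE 0.13, adjusted p = 0.0740). Both were lower on every L4 array than on any WT array, and in both the L4 arrays spread widely while the L4 pool means had SDs of only 0.059 and 0.093. On the higher side the first of 2 such probe sets had 0.96 (SE 0.11, adjusted p = 0.199), with 0.0056 for the EC and 1.91 for the S, and the second had 1.02 (SE 0.12, adjusted p = 0.199) at values of 2.55 to 4.78 in L4 and 2.46 to 2.68 in WT.

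**Figure D5:**
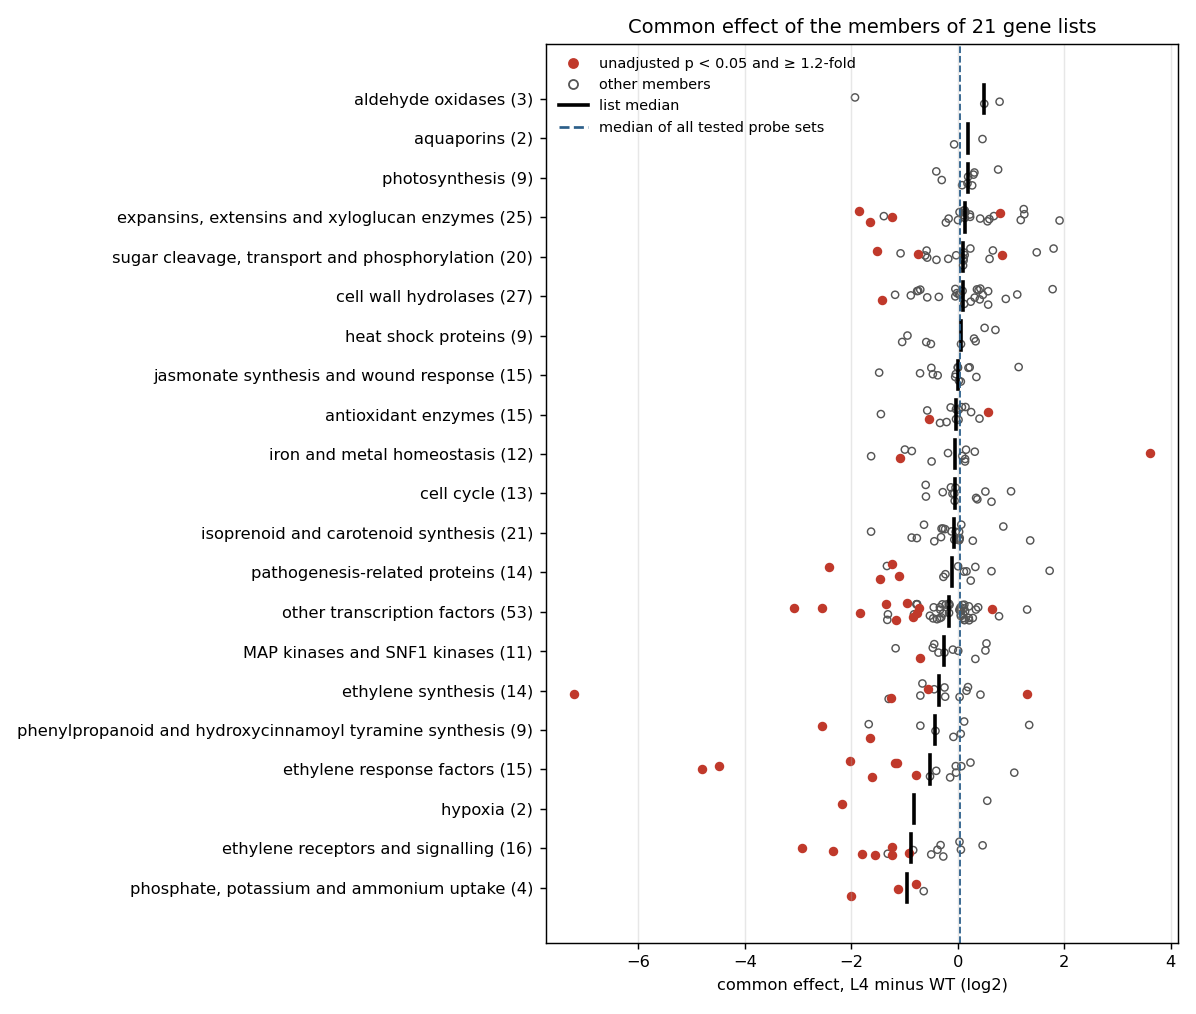
Common effect (horizontal axis, L4 minus WT, log2 scale) of the members of 21 gene lists, each point a gene and the number of genes in brackets; black bars are list medians and the dashed line is the median of all tested probe sets, 0.042. Red points are past the unadjusted p of 0.05 with at least 1.2-fold, 7 of 16 among ethylene receptors and signalling and 7 of 15 among ethylene response factors. Of all tested probe sets 6.92% were past it in either direction, and of the named genes 2.12% as higher and 10.1% as lower.

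Whether the genotype effect was the same in the EC and the S was tested as the difference of the genotype effect between the sectors, with limma on the EC minus S difference of each pool. It called 0 of 10101 probe sets (0%), the smallest adjusted p was 0.983, and 242 (2.4%) passed at an unadjusted p under 0.05. The same sign in both sectors was found for 5568 of 10101 probe sets. A missed threshold does not show that the sectors respond alike: for EXPA8 the differences within the EC and the S were 1.70 and -1.49, and for THT7-8 they were -4.30 and -0.79. Among the members of the lists the smallest unadjusted p-values of the difference were those of FESOD (0.00269), the aldehyde oxidase TAO2 (0.00743) and GLB2 (0.0141), leaving out PT2, which was near the floor, each with an adjusted p of 0.983.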

How the data were processed

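Laser-microdissected EC and S of L4 and WT roots, 3 arrays each, were hybridised after RNA amplification to the GeneChip Tomato Genome Array. The authors deposited 1 table of log2 values for 12 arrays, recorded with GeneChip Command Console; how probe sets were summarised and normalised is not given in the sources read. The 12 value columns all entered the analysis, so 0 went unused. Control probe sets (108) were left out, and 63 reporter probe sets stayed among the 10101 tested. Symbols came from the platform annotation (885 annotated probe sets matched RefSeq by gene identifier). The EC and S values of a pool were averaged and compared with lmFit and eBayes of limma 3.58.1 under R 4.3.3 (4 residual degrees of freedom), with Benjamini-Hochberg adjustment over all tested probe sets. A call needed an adjusted p under 0.05 and at least a 1.2-fold difference. Plots were made in Python 3.11.15 (matplotlib 3.10.9). The fitting functions were tested on simulated data.

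The number of arrays limits the precision, and p-values measure the spread between these pools. For a gene with several probe sets, the one of highest mean stood for it. Named were 12 genes higher and 12 lower in L4 by smallest p, the genes the study discusses for roots, and the 2 probe sets without a symbol of each direction with the smallest p; members of the lists were named for their values. The members and the 21 lists (309 members) were chosen with earlier results of these data known. Alternatives were other fits of the arrays, scaling, filters, weights, a spike-in covariate, a replicate block, and leaving out each pool or array. Sequences were not used here.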

Additional observations from a re-analysis of the deposited data

Results flagged for a closer look

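In 88 groups of 6 arrays, the highest or lowest array was set against the rest of its group, and in 14 of them its gap to the nearest array took up more of the group's range than Dixon's 95% critical value allows; chance gives this in about 1 in 20 groups. The 14 were split evenly, 7 in L4 and 7 in WT, and 4 of them fell on L4 EC replicate 2.

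That array was low for ETR3 (4.49, with the nearest other L4 array at 8.57) and for bZIP44 (5.20, nearest 10.1), high for ACO5 (5.56, nearest 3.06), and its values had the smallest SD of the L4 arrays (3.04). L4 EC replicate 1 was high for CBF1 (7.63, nearest 2.54), L4 EC replicate 3 was low for ACO4 (8.59, nearest 10.52), and L4 S replicate 2 was high for NRAMP1 (3.66, nearest 2.54).

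In WT, S replicate 3 was low for LOC543701 (2.75, nearest 4.61) and for Nramp2 (5.76, nearest 6.09), had the smallest SD of the WT arrays (3.32) and had the highest spike-in mean of them (12.4). WT EC replicate 3 was low for PLDb2 (3.14, nearest 3.29) and high for the second of the higher probe sets without a symbol (2.68, nearest 2.52). WT EC replicate 2 was high for E8 (2.82, nearest 2.59).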

How the results depend on the processing

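The count of called probe sets, 0 on the pool means (244 higher and 455 lower at an unadjusted p under 0.05), was 7 with the 12 arrays and the pool as a random block, 7 with the arrays taken as independent, 2 after median centring, 3 among probe sets with a mean of at least 4, 163 with array weights (108 lower in L4), and 2 with the 9 arrays of lower spike-in signal, a choice made after seeing the data. With a pool left out it ran from 0 (without L4 replicate 2, L4 replicate 3 or WT replicate 2) to 9 (without WT replicate 1), with 2 without L4 replicate 1 and 1 without WT replicate 3. With a single array left out of the random block fit it ran from 0 (without L4 S replicate 2) to 17 (without L4 EC replicate 1), with 2, 3, 5 or 6 without any other array. The unadjusted counts were 128 higher and 320 lower when only probe sets with a mean of at least 4 were fitted (200 and 404 of the same probe sets in the fit of all), 390 higher with a spike-in covariate, 1278 higher and 1401 lower with array weights, and 111 higher and 291 lower at a minimum of 2-fold. They ran from 155 to 430 higher and 255 to 757 lower with a pool left out, and from 78 to 369 higher and 191 to 681 lower with an array left out (161 higher without L4 EC replicate 3, 135 higher and 254 lower without WT EC replicate 3, 254 lower without L4 EC replicate 2). Of the unadjusted differences, 34.9% were higher in L4 on the pool means, 47.5% after quantile normalization, 49.4% with the spike-in covariate, 47.7% with array weights, 48.3% without L4 replicate 2, 48.5% without L4 EC replicate 2 and 43.8% with the 9 arrays. In the fit with array weights, L4 replicate 3 had a weight of 5.81, and L4 replicates 1 and 2 had 0.40 and 0.32. The L4 side of that fit therefore rested mostly on 1 pool. The sector difference gave 0 calls in every alternative run. The cause of these shifts was not tested.

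Pairing of same-numbered samples across the genotypes was not established, since the labels do not state it: pools with 1 number correlated at 0.32, -0.05 and 0.34 in their deviations, and 4 of 6 pools correlated best with their own number. With the replicate number as a block, 0 probe sets were called, and 315 were higher and 575 lower at the unadjusted threshold.

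Over 41 genes and probe sets and 28 alternatives, 1141 values were computed: none of the 41 was called on the pool means, 1070 values kept their direction and were again not called, 56 kept it and were called, and 15 changed sign. ERF2 ranged from -4.97 to -4.21, ETR6 from -3.51 to -2.54, ADH2 from -2.45 to -1.91, sus3 from -1.74 to -1.37, ACO5 from -8.60 to -6.25 and FER from 3.02 to 4.40. The LOC543701 common effect was -0.061 with the 9 arrays. The E8 common effect was -0.031 after quantile normalization and -0.013 with the 9 arrays. The EXPA8 common effect was -0.057 after quantile normalization, from -0.51 to 0.88 with a pool left out, and, with an array left out, -0.17, -0.70, -0.00067, -0.48, -0.50 and -0.075. The exp18 common effect ranged from -0.54 to 0.13 with a pool left out and was 0.038 without L4 EC replicate 3.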

Other observations

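Of all tested probe sets 6.92% were past the unadjusted threshold in either direction, and of the named genes 2.12% as higher and 10.1% as lower. Several lists held no member past it. These were jasmonate synthesis and wound response (15 genes, median -0.0010), heat shock proteins (9 genes, 0.059), the cell cycle (13 genes, -0.059), isoprenoid and carotenoid synthesis (21 genes, -0.067), photosynthesis (9 genes, 0.19), aldehyde oxidases (3 genes, 0.50) and aquaporins (2 genes, 0.20). Without L4 replicate 2 the medians of the cell cycle and isoprenoid lists were 0.17 and 0.052, and 1 cell cycle gene was past the threshold; with the spike-in covariate 2 genes of each of these lists were past it, all higher. Among the MAP kinases and SNF1 kinases, which pass on stress and energy signals, 7 of 11 differences were negative and MPK2 alone was past the threshold (-0.70). Without L4 replicate 2 the list had 0 members past it as lower and 1 as higher, and its median was -0.023 in place of -0.25.

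The leaf and plastid markers, 3 chlorophyll-binding proteins and plastocyanin PETE, averaged 3.69 to 7.98 on the L4 arrays and 2.69 to 8.83 on the WT arrays. Their differences between the genotypes had large errors, with 0.27 (SE 2.06) for CAB4 and 0.76 (SE 1.69) for PETE.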
